A study of Homo sapiens with 6 samples.

Results

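The EGF receptor ligands are the secreted or membrane-anchored growth factors that bind and activate EGFR, a receptor tyrosine kinase of epithelial cells. The 7 genes AREG, EREG, HBEGF, TGFA, BTC, EPGN and EGF were taken by symbol from the count table, and all 7 of them were among its 60591 rows. KYSE150 is an established line of human oesophageal squamous carcinoma cells. TPA, a phorbol ester, activates protein kinase C, and DMSO is its solvent. RNA was sequenced from 3 libraries of KYSE150 cells given TPA and 3 given DMSO. Per the labels, cells were kept overnight in medium without serum and then given TPA at 10 ng/ml for 24 h. The DMSO samples carry the same protocol text, with no dose or time of their own. The comparison asks which transcripts differ between TPA and DMSO. Separate cultures are not stated for the libraries of a group, so p-values cover only the spread among these samples, which may be technical. All libraries are of 1 cell line.

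Each of the 7 ligands is made as a transmembrane precursor with an EGF domain outside the cell. Membrane proteases of the ADAM family, chiefly ADAM17 and ADAM10, cut the precursor and release the soluble ligand, so a transcript level does not show how much ligand is released. AREG, TGFA, EPGN and EGF bind EGFR, while HBEGF, BTC and EREG also bind ERBB4. Receptor activation runs through the ERK cascade to target genes that include feedback inhibitors of the pathway, and in squamous epithelia the ligands act on the cells that make them and on their neighbours.

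Library totals ran from 27702329 to 33965547 counts. Libraries numbered 1 stood apart from those numbered 2 and 3. Across genes, log2 CPM (depth-scaled counts, with TMM factors) of TPA 1 had r = 0.974 with DMSO 1, but only 0.927 with TPA 2 and 0.936 with TPA 3. No libraries were duplicates: the nearest, TPA 2 and TPA 3, differed with a chi-square of 6.17 for each degree of freedom. Results are therefore given with and without the libraries numbered 1 where that changes a call, and from a fit that blocks on the number. All 9 squamous epithelial markers listed had counts, and their summed level was 1690 to 3440 CPM in DMSO and 1310 to 2610 CPM in TPA. The 6 fibroblast markers summed to 3.01 to 12.2 CPM with DCN at 0, the 6 leukocyte markers to 3.52 to 8.45 CPM, and the 4 endothelial markers to 0.979 to 2.93 CPM with KDR at 0.

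The genes lie on 3 chromosomes. EPGN (chr4:74308473-74315307), EREG (chr4:74365143-74388751), AREG (chr4:74445134-74455009) and BTC (chr4:74744759-74794686) form a cluster that spans 486 kb, with gaps of 49.8, 56.4 and 290 kb between neighbours (GENCODE 29, GRCh38). BTC is on the minus strand, its cluster neighbours on the plus strand. EGF (chr4:109912884-110012266, plus strand) lies farther along the chromosome. TGFA (chr2:70447280-70554193) and HBEGF (chr5:140332843-140346631) are on the minus strands of their chromosomes.

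The 150 bases before the RefSeq start (GRCh38.p14) are shown for the 3 ligands with appreciable read counts (AREG, TGFA and HBEGF), for EREG, the neighbour of AREG that had almost no reads, and for EGF, whose window is the only one of the 8 ligand windows with an AP-1 motif. Capitals mark motif matches.
AREG, chr4:74444986-74445135, plus strand: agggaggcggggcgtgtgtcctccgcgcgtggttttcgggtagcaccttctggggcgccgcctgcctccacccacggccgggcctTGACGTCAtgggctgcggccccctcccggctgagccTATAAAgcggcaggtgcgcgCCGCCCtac
EREG, chr4:74364995-74365144, plus strand: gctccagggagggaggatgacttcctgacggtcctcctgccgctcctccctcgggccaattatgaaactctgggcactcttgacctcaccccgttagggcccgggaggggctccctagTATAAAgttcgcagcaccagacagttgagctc
TGFA, chr2:70553827-70553976, minus strand: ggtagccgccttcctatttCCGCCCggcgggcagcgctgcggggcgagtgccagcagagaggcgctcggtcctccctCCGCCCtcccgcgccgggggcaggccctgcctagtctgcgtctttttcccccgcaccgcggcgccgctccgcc
HBEGF, chr5:140346604-140346753, minus strand: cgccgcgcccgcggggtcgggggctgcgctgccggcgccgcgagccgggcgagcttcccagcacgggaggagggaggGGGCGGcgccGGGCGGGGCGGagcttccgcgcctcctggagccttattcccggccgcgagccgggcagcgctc
EGF, chr4:109912733-109912882, plus strand: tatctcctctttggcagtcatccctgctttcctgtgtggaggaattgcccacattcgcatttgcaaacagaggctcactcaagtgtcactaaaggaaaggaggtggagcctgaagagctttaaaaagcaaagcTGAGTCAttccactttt
Both strands were searched in windows of 300 bases, from 250 before to 50 after the start. The letters of the AP-1 motif were TGANTCA. Those of the CRE motif, a cyclic AMP response element, were TGACGTCA. The GC box was searched as GGGCGG and the TATA box with the letters TATAAA. The AP-1 motif does not cover the CRE motif, and adjacent GC boxes can share bases, as a pair in HBEGF does. In AREG a CRE match began 65 bases before the start and a TATA box match 29 bases before it. EREG had a TATA box match at 32 bases, and none of the other motifs. In the windows of 300 bases HBEGF had 5 GC box matches, 3 of them in the bases shown, and the window at the TGFA start shown had 4, 2 of them in the bases shown, with no CRE or TATA box match in either. In EGF an AP-1 match began 17 bases before the start. Over all 35116 RefSeq windows of this length, 7.71% held the AP-1 motif, 1.85% the CRE motif, 45% the GC box and 11.5% the TATA box. A match describes letters only, and no binding was measured.

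TGFA, a ligand that many epithelial tumour cells make for themselves, rose. Its level was 130.3, 92.76 and 90.73 CPM in DMSO libraries 1, 2 and 3, and 391.4, 308.8 and 331.6 CPM in TPA libraries 1, 2 and 3. All 3 TPA libraries stood above all 3 DMSO libraries, the lowest TPA library at 2.37 times the highest DMSO library. The means were 104.6 ± 22.3 CPM in DMSO and 343.9 ± 42.6 CPM in TPA (SD, n = 3 each). The log2 fold change was 1.72 ± 0.23 (SE), a 3.29-fold rise with an adjusted p of 0.0312 in edgeR's quasi-likelihood test, adjusted by Benjamini-Hochberg over all 21825 genes tested. Taken by library number, the log2 ratio of TPA to DMSO was 1.59, 1.74 and 1.87 for numbers 1, 2 and 3, so the size was similar for every number. The call did not hold without DMSO 2 (adjusted p = 0.272), DMSO 3 (0.273), TPA 2 (0.0876) or TPA 3 (0.126), with log2 fold changes between 1.63 and 1.80. With the replicate block it held (log2 1.73 ± 0.24, adjusted p = 0.00207).

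HBEGF, a heparin-binding ligand that also serves as the diphtheria toxin receptor, was higher in every TPA library but did not pass. DMSO 1 had 43.28 CPM against 12.2 and 11.43 CPM in DMSO 2 and DMSO 3, while TPA 1, 2 and 3 had 86.06, 80.9 and 88.04 CPM. The TPA libraries lay close together and above all DMSO libraries, and within DMSO library 1 stood apart. The log2 fold change was 1.93 ± 0.53 (3.81-fold, edgeR adjusted p = 0.0943). Without DMSO 1 it was 2.85 ± 0.25 (7.22-fold, adjusted p = 0.0285), in a fit that called 0.449% of all genes higher. Without TPA 1 it was 2.03 ± 0.53 (adjusted p = 0.0154), where 24.6% of all genes were called higher. With the replicate block it passed (log2 2.23 ± 0.38, adjusted p = 0.00678). By library number the log2 ratio was 0.99 for number 1 and 2.73 and 2.94 for numbers 2 and 3.

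AREG, the ligand amphiregulin, was also higher in every TPA library and did not pass. It had 44.63, 33.47 and 29.06 CPM in DMSO 1, 2 and 3, and 53.4, 86.24 and 84.78 CPM in TPA 1, 2 and 3. The groups did not overlap, but TPA 1 was only 1.2 times DMSO 1. The log2 fold change was 1.07 ± 0.28 (2.09-fold, edgeR adjusted p = 0.0897). It passed with the replicate block (log2 1.06 ± 0.29, adjusted p = 0.0426) and without TPA 1 (log2 1.37 ± 0.18, adjusted p = 0.001). By library number the log2 ratio was 0.26 for number 1 and 1.37 and 1.54 for numbers 2 and 3.

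**Figure D1:**
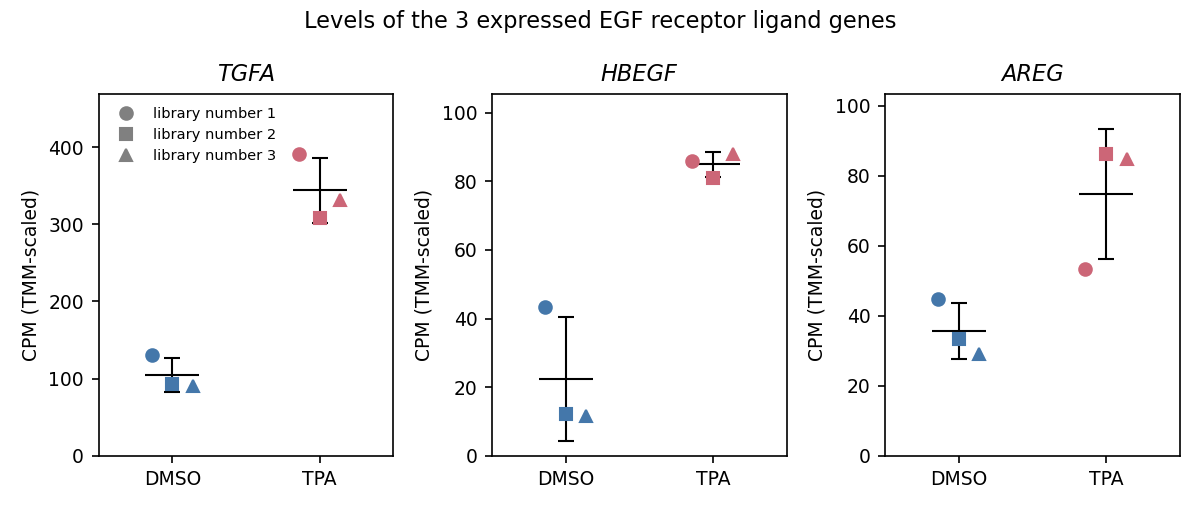
CPM (linear axis from 0) of TGFA, HBEGF and AREG in the 3 DMSO and 3 TPA libraries; marker shape gives the library number, and bars give the mean and SD. All TPA points lie above all DMSO points for each gene, with DMSO 1 high for HBEGF (43.28 CPM) and TPA 1 low for AREG (53.4 CPM).

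Thus 1 of the 3 ligands that entered the test was called higher and 0 lower, where 0.861% of all tested genes were called higher and 0.394% lower. With the replicate block all 3 were called higher, against 4.58% of all tested genes. In DESeq2 all 3 were called higher too (adjusted p = 3e-09, 0.00322 and 0.00776), against 7.8% of all genes. All 3 had TPA libraries that did not overlap the DMSO libraries, as did 14.3% of all tested genes in that direction. Without both libraries numbered 1, a fit of 2 close libraries against 2, the log2 fold changes of TGFA, HBEGF and AREG were 1.96, 2.99 and 1.61 and all 3 were called, against 32.2% of all tested genes called higher. Each of the 3 had at least 351 counts in every DMSO library, so none entered the test through its TPA level alone.

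In libraries numbered 2 and 3 genes of different GC content had different median ratios of TPA to DMSO, so the median of genes of like GC content is given beside each ligand. For the 914 genes with an average log2 CPM over 2 whose GC content was within 1 percentage point of that of TGFA (45.9%), the median log2 ratios for numbers 1, 2 and 3 were 0.06, -0.24 and -0.05. For the 776 genes near HBEGF (50.9%) they were 0.06, 0.41 and 0.39. For the 905 near AREG (45.3%) they were 0.09, -0.31 and -0.10. In each case the ligand's own ratio was above the median of its neighbours in GC content. After a correction of each library for GC content, with the block, TGFA, HBEGF and AREG had log2 fold changes of 1.81 ± 0.12, 1.93 ± 0.32 and 1.19 ± 0.31, and all 3 were called higher (edgeR adjusted p = 0.0024, 0.0162 and 0.0452), against 9.38% of all genes in that fit. With the correction and no block only TGFA was called (1.79 ± 0.16, adjusted p = 0.00987), against 3.3% of all genes called higher. HBEGF was then at 1.64 ± 0.54 (adjusted p = 0.106) and AREG at 1.24 ± 0.29 (0.0512). The part of GC content in the ligands' ratios was not tested further.

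The other ligands, BTC, EREG, EPGN and EGF, had between 0 and 7 counts in any library and were left out of the test by its filter on low counts. BTC, betacellulin, had 4, 7 and 6 counts in DMSO and 5, 5 and 4 in TPA. The ratio of its summed counts, TPA over DMSO after scaling, was 0.878 with an exact 95% counting interval of 0.401 to 1.89. EREG, epiregulin, had 3, 3 and 2 counts in DMSO and 1, 2 and 0 in TPA, a ratio of 0.4 (0.0683 to 1.67). EPGN, epigen, had 3, 0 and 1 counts in DMSO and 1, 0 and 1 in TPA, a ratio of 0.533 (0.0482 to 3.72). EGF itself had 1, 2 and 2 counts in DMSO and 0, 1 and 0 in TPA, a ratio of 0.213 (0.00451 to 1.91). A difference between groups was not detectable at this depth for any of the 4, and their intervals include 1. Where a library had 0 counts, the level could still be as high as 0.0915 to 0.109 CPM, which is 3 counts over its scaled size. These limits and intervals cover counting error alone and leave out the spread between libraries. They also treat each read as separate, while reads without molecular identifiers may be copies of the same molecule.

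**Figure D2:**
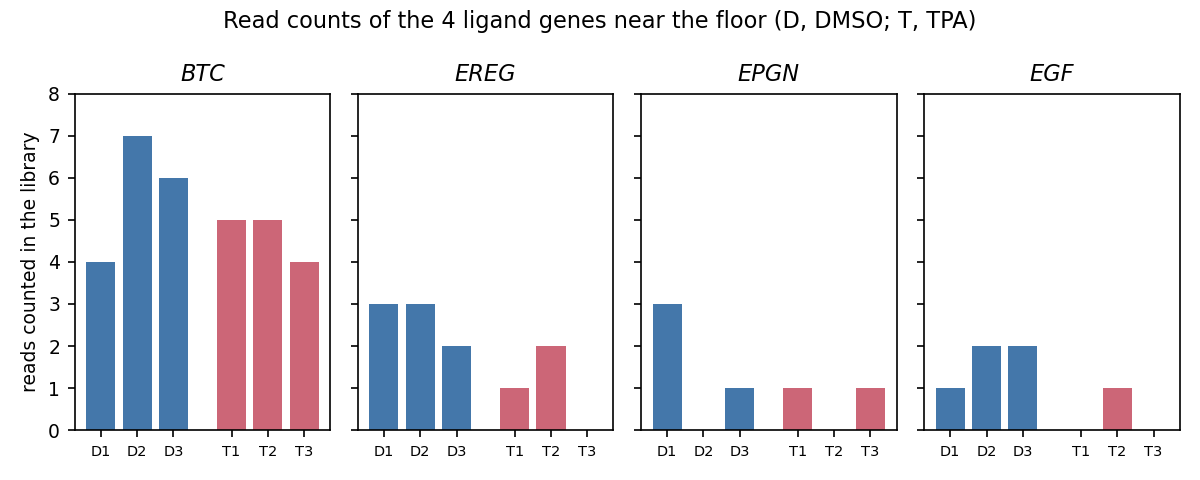
Reads counted for BTC, EREG, EPGN and EGF in each DMSO (D1 to D3) and TPA (T1 to T3) library, on a linear axis from 0. No library had more than 7 reads of any of these genes.

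Across the chromosome 4 cluster, reads came almost only from AREG. Its neighbours EPGN and EREG on one side and BTC on the other had at most 7 counts in a library, where AREG had 892 to 2600. Adding all 7 ligands, the summed level was 132 to 219 CPM in DMSO and 476 to 531 CPM in TPA, with DMSO 1 the highest of its group. TGFA, HBEGF and AREG together made up 99.73% to 99.97% of the ligand counts in every library.

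Levels of different genes can be compared only per length. Per kb of the longest coding transcript in GENCODE 29 (1240 nt for AREG, 4310 nt for TGFA, 2386 nt for HBEGF), DMSO libraries held 28.8 ± 6.47 CPM per kb of AREG, 24.3 ± 5.17 of TGFA and 9.35 ± 7.62 of HBEGF (SD, n = 3). The spreads of AREG and TGFA met there, while within each DMSO library AREG stood above TGFA. In TPA the order was TGFA at 79.8 ± 9.89, AREG at 60.3 ± 15 and HBEGF at 35.6 ± 1.55 CPM per kb. The spreads of TGFA and AREG met, while within each TPA library TGFA stood above AREG. The order rests on the transcript taken. With the median length of the coding transcripts, which is 950 nt for TGFA, TGFA stood at 110 ± 23.5 CPM per kb in DMSO and 362 ± 44.9 in TPA, above AREG at 32.5 ± 7.31 and 68.1 ± 16.9. Which transcripts were present was not measured.

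The make-up of the ligand transcripts within a library needs no scaling between libraries, but it was not corrected for GC content. For library numbers 2 and 3, genes of like GC content had median log2 ratios of 0.41 and 0.39 near HBEGF. Near AREG they were -0.31 and -0.1, and near TGFA -0.24 and -0.05. The part of GC content in the shares was not tested. On the longest transcripts, AREG made up 42.6%, 50.2% and 47.4% in DMSO 1, 2 and 3, and 25.3%, 39.7% and 37.5% in TPA 1, 2 and 3. Every TPA library was below every DMSO library, with a difference of means of -12.6 percentage points. It was -8.15 points without TPA 1 and -6.66 points with median transcript lengths. The exact two-sided permutation test gave p = 0.10, the smallest that 3 against 3 libraries allow, and 0.30 after adjustment over the 3 ligands. The share of TGFA was 35.8%, 40% and 42.6% in DMSO and 53.4%, 40.9% and 42.2% in TPA, which overlapped (exact permutation p = 0.30, adjusted 0.40). Its difference of means was 6.03 points, but 2.08 without TPA 1 and 0.223 without both libraries numbered 1. The share of HBEGF was 21.5%, 9.52% and 9.7% in DMSO and 21.2%, 19.4% and 20.2% in TPA, with DMSO 1 at the level of the TPA libraries (exact permutation p = 0.40, adjusted 0.40). The 7 ligands' shares sum to the whole, so these values are not independent.

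**Figure D3:**
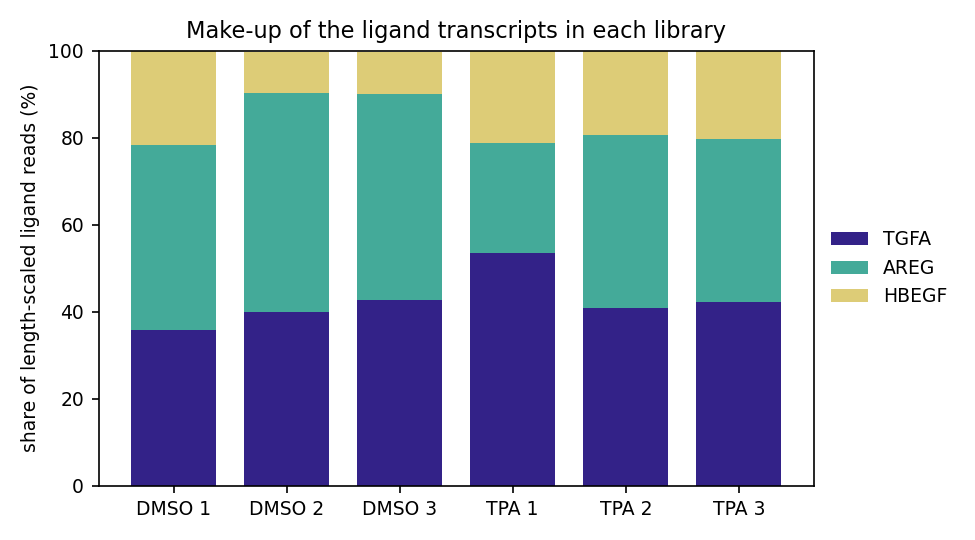
Share (%) of TGFA, AREG and HBEGF in the summed counts per base of the longest transcript of the 7 ligands, by library; the other 4 are too small to see. The AREG part is smaller in each TPA library (25.3% to 39.7%) than in each DMSO library (42.6% to 50.2%).

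The same comparison as plain count ratios gave TGFA over AREG as 2.92, 2.77 and 3.12 in DMSO and 7.33, 3.58 and 3.91 in TPA, a log2 difference of 0.67. The groups did not overlap, and the exact permutation test gave p = 0.10 (0.20 adjusted over 6 ratios). TPA 1 held the highest value by far. The ratio of HBEGF to AREG was 0.97, 0.365 and 0.393 in DMSO and 1.61, 0.938 and 1.04 in TPA, so TPA 2 lay just below DMSO 1 (log2 difference 1.17, exact permutation p = 0.20, adjusted 0.30). HBEGF over TGFA overlapped too (log2 difference 0.49, exact permutation p = 0.40, adjusted 0.40). These count ratios, and those to EGFR below, were not corrected for GC content either.

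EGFR, the receptor of all 7 ligands, did not pass with all libraries. DMSO libraries had 1931, 1684 and 1342 CPM and TPA libraries 3834, 1513 and 1679 CPM. The log2 fold change was 0.50 ± 0.37 (edgeR adjusted p = 0.46). TPA 1 alone was above the DMSO range. Without both libraries numbered 1, EGFR was called higher with the other 2 tested ERBB receptors, where 32.2% of all tested genes were. That fit was not corrected for GC content. With the GC correction and the block EGFR did not pass (log2 0.31 ± 0.22, edgeR adjusted p = 0.318). Set against the receptor within each library, TGFA counts per EGFR count were 0.0675, 0.0551 and 0.0676 in DMSO and 0.102, 0.204 and 0.197 in TPA. These groups did not overlap (log2 difference 1.34, exact permutation p = 0.10, adjusted 0.20 over the same 6 ratios). AREG per EGFR was 0.0231, 0.0199 and 0.0217 in DMSO and 0.0139, 0.057 and 0.0505 in TPA. TPA 1 was below all DMSO libraries here and TPA 2 and 3 were above them (log2 difference 0.67, exact permutation p = 0.40, adjusted 0.40). HBEGF per EGFR was 0.0224 in both libraries numbered 1, 0.00725 and 0.00852 in DMSO 2 and 3, and 0.0535 and 0.0524 in TPA 2 and 3 (log2 difference 1.84, exact permutation p = 0.10, adjusted 0.20).

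The other genes of the pathway were read from the same fit, in which all tested genes had a median log2 fold change of -0.11. Of the ERBB receptors 3 of 4 were tested and 0 passed in either direction (0 at an unadjusted p under 0.05 too, which 22.1% of all genes reached, median 0.46), and ERBB4 had at most 6 counts in a library. Without both libraries numbered 1 the calls were 3 higher and 0 lower (against 32.2% and 33.3% of all genes), and without TPA 1 alone 2 higher and 0 lower (against 24.6% and 27.8%). Neither fit was corrected for GC content. With the GC correction and the block, 0 of the 3 tested receptors were called. Their median was then 0.04, against -0.15 over all genes. Of the neuregulins, which bind ERBB3 and ERBB4, 3 of 4 were tested and NRG1 fell, from 175, 228.8 and 208.9 CPM in DMSO to 53.83, 59.12 and 59.81 CPM in TPA. Its log2 fold change was -1.83 ± 0.21 (edgeR adjusted p = 0.025), the opposite direction to TGFA, where 0.394% of all tested genes were called lower. That call did not hold without DMSO 2, DMSO 3, TPA 2 or TPA 3 (adjusted p between 0.0876 and 0.242). NRG2 (log2 0.45 ± 0.75) and NRG4 (-0.89 ± 0.40) did not pass, and NRG3 had no count. NRG2 was called higher without TPA 1 (log2 1.08 ± 0.34, adjusted p = 0.0318) and without both libraries numbered 1 (0.91 ± 0.25, 0.00436). With the GC correction and the block NRG2 was at -0.25 ± 0.46 (edgeR adjusted p = 0.705).

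Genes of ligand shedding and trafficking showed no call: 0 of 11 tested passed, none at an unadjusted p under 0.05 either, with a median log2 fold change of -0.01. ADAM17, the main sheddase of TGFA, AREG and HBEGF, had 199.8, 119.7 and 100.6 CPM in DMSO and 187.9, 69.07 and 78.69 CPM in TPA (log2 -0.32 ± 0.44, edgeR adjusted p = 0.695). The values went with the library number, high in both libraries numbered 1. RHBDF2, which carries ADAM17 to the cell surface, had 47.3, 47.08 and 50.07 CPM in DMSO and 44.19, 79.21 and 74.38 CPM in TPA (log2 0.45 ± 0.27, adjusted p = 0.358). With the block, TIMP3, an inhibitor of ADAM17, fell (log2 -1.90 ± 0.39, adjusted p = 0.0152), where 6.52% of all genes were called lower. It was the only one of the 11 called there, from a low level of 3.13 ± 1.8 CPM in DMSO and 0.962 ± 0.753 CPM in TPA. When both libraries numbered 1 were left out, 5 of the 11 passed as higher and 4 as lower, and without TPA 1 alone 5 and 3. Over all genes the shares were 32.2% and 33.3% in the former fit and 24.6% and 27.8% in the latter. Neither fit was corrected for GC content. With the GC correction and the block, 0 of the 11 were called higher and 1, TIMP3, lower. Over all genes that fit called 1971 higher and 2287 lower of 21024. RHBDF2 was then at log2 0.06 ± 0.09 and ADAM17 at 0.02 ± 0.10.

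Of 10 genes listed under receptor attenuation, not all of them established inhibitors of EGFR, 0 passed (1 at an unadjusted p under 0.05, median -0.09). The block called LRIG3, a transmembrane protein of the LRIG family, lower (log2 -0.95 ± 0.23, edgeR adjusted p = 0.0292), where 6.52% of all genes were. ERRFI1, an intracellular EGFR inhibitor, had 169.7, 74.91 and 64.27 CPM in DMSO and 225.2, 118.2 and 133.9 CPM in TPA. It was higher in TPA within each library number, with overlapping groups (log2 0.63 ± 0.43, adjusted p = 0.426, and 0.0784 with the block). With the GC correction and the block ERRFI1 was called higher (log2 1.03 ± 0.22, edgeR adjusted p = 0.0294). That fit called 2 of the list higher, against 9.38% of all genes, and 1 lower. The GC correction without the block called 0 of the list. In the fit that leaves out both number 1 libraries, 3 of the list were higher and 4 lower, beside 32.2% and 33.3% of all genes, and without TPA 1 alone 0 and 3, beside 24.6% and 27.8%.

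Among 10 genes used as a read-out of ERK activity 1 rose and 0 fell, with a median log2 fold change of 0.63. Of all tested genes 0.861% were called higher and 0.394% lower. At an unadjusted p under 0.05, in either direction, there were 6, beside 22.1% of all genes. EPHA4, which was lower, was among these. SPRY2, a feedback inhibitor of receptor tyrosine kinase signalling, rose from 16.2 ± 1.1 to 38.7 ± 5.95 CPM (log2 1.25 ± 0.22, edgeR adjusted p = 0.0491). It was called without TPA 1, but not without any other single library (adjusted p between 0.0965 and 0.319). With the block CCND1, the gene of cyclin D1 (log2 1.19 ± 0.25, adjusted p = 0.0172), and SPRY4 (1.12 ± 0.25, 0.022) were called higher too, where 4.58% of all genes were. EPHA4, a receptor tyrosine kinase gene near the floor, was the member with a negative value (log2 -1.08 ± 0.45, adjusted p = 0.213). In the fit without both number 1 libraries 9 of the 10 were called higher (32.2% of all genes), and without TPA 1 alone 8 (24.6% of all genes). With the GC correction and the block 6 were called higher, against 9.38% of all genes, and the list's median was 0.40.

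**Figure D4:**
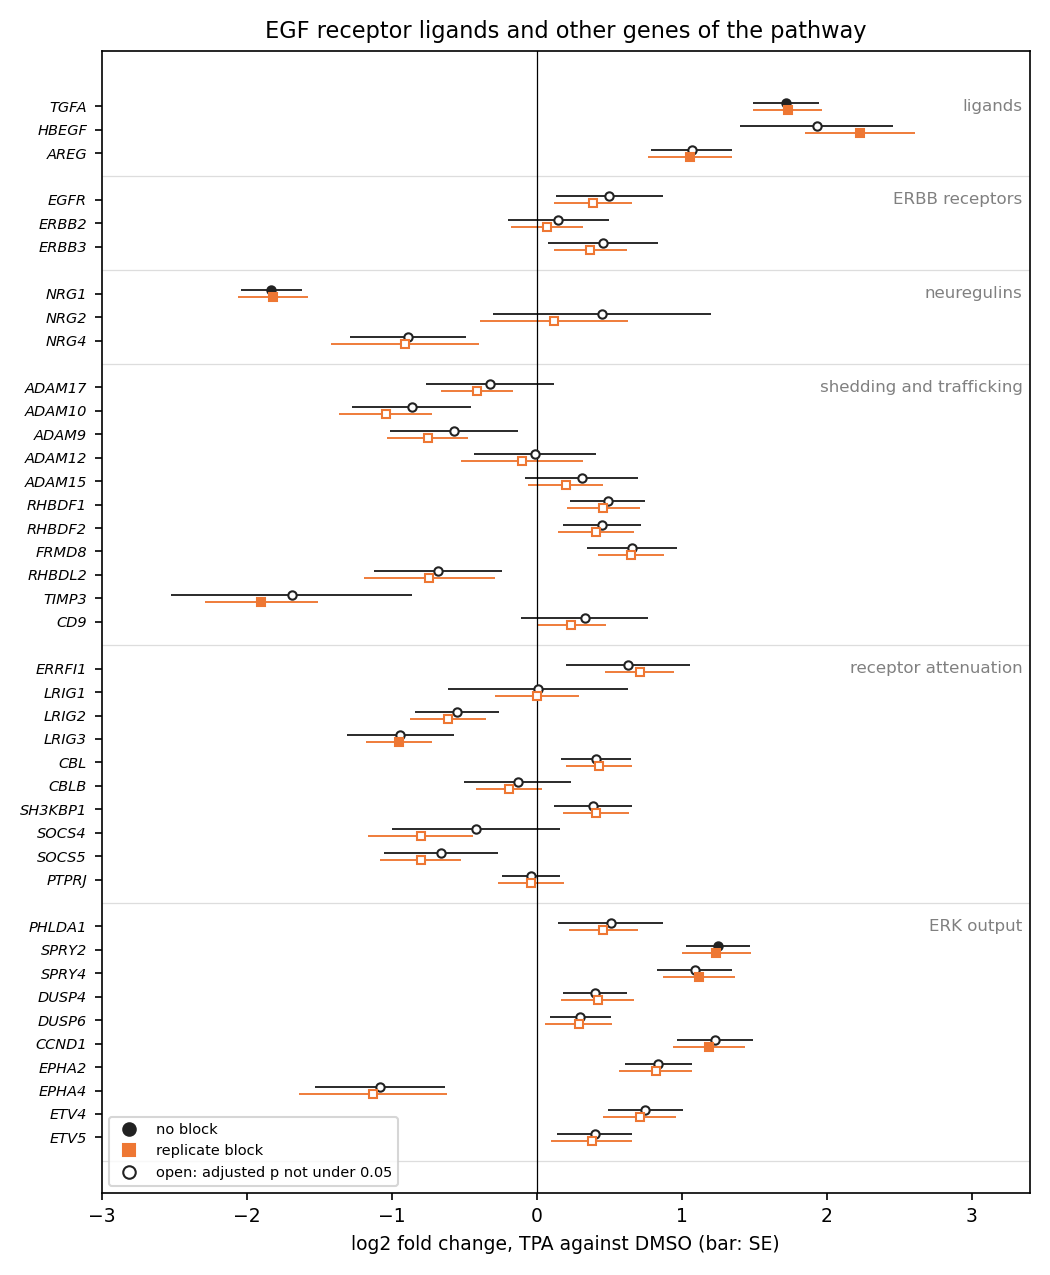
Log2 fold change of TPA against DMSO (points, with SE as bars) for the tested ligands and 37 other pathway genes, without a block (circles) and with the replicate block (squares); filled symbols have an adjusted p under 0.05. TGFA, NRG1 and SPRY2 are filled in both fits, while HBEGF, AREG, TIMP3, LRIG3, SPRY4 and CCND1 are filled with the block.

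Over the 6 libraries, log2 CPM of TGFA correlated with that of HBEGF at r = 0.94 and of AREG at 0.87, and HBEGF with AREG at 0.90. EGFR correlated with TGFA at 0.53, with HBEGF at 0.48 and with AREG at 0.11. These values describe 6 libraries in 2 groups that share treatment and library number. The genes most like TGFA among 11679 named genes with an average log2 CPM of at least 1 were IL24, a cytokine of the IL-10 family (r = 0.9994), and SERPINB2, an inhibitor of urokinase (0.9993). IL24 had 3.59, 1.37 and 1.3 CPM in DMSO and 54.7, 35.4 and 37.8 CPM in TPA, so it shared the order of libraries at a lower level and with a larger change. The most like HBEGF were TBC1D22B (0.9982) and SESN2, a stress-induced gene (0.9981), the latter with 64, 19.1 and 18.3 CPM in DMSO and 117, 104 and 104 CPM in TPA. The most like AREG were ETS2, a transcription factor of the ETS family (0.9992), and SART3 (0.9984), with ETS2 at 167, 144 and 137 CPM in DMSO and 179, 225 and 226 CPM in TPA. The coefficient r does not measure the size of a change. The log2 fold change was 4.35 for IL24 against 1.72 for TGFA, and 0.49 for ETS2 against 1.07 for AREG. With so few libraries values of r above 0.9 are common: 870, 782 and 1605 genes had them with TGFA, HBEGF and AREG.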

How the data were processed

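RNA sequencing counts of 3 TPA and 3 DMSO libraries were used. The authors deposited raw counts of reads per gene symbol, without normalization, and 0 columns fell outside the labels. Per the submitters' processing notes, the tools were HISAT2 2.1.0 and HTSeq 0.12.4, and the builds named are hg38 and GRCh38. Not given in the sources used here are the annotation release and strand setting, so reads of overlapping genes (TGFA with the intronic TGFA-IT1, EGFR with EGFR-AS1) cannot be told apart. The control columns were taken as the DMSO samples, by their number.

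CPM values are the deposited counts over the TMM-scaled library size. TPA was compared with DMSO in edgeR 4.0.16 (R 4.3.3) by the quasi-likelihood test, with treatment alone in the model and filterByExpr for low counts, and p was adjusted by Benjamini-Hochberg over 21825 genes at 0.05. SE is the log2 fold change over the square root of F. Members and gene lists were chosen with earlier results of these data known. Named genes were the ligands, pathway genes that passed with or without the block, EGFR, ADAM17, RHBDF2 and ERRFI1, and the 2 genes most correlated with each ligand whose mean log2 CPM reached 1. Same-numbered libraries deviated together from their group means (r = 0.648, 0.434 and 0.611 across genes), so the number was used as a block, although no label states what it marks. Crossed libraries numbered 2 and 3 gave 0.482 and 0.607, so these pairs are not told apart. Deviations within a group cancel out, so the values for numbers 2 and 3 depend on that for number 1.

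GC content, lengths and coordinates came from GENCODE 29, matched by symbol, with GC content found for 96.3% of tested genes. Its correction was an offset per library from a robust spline (5 degrees of freedom). Promoter windows are RefSeq's on GRCh38.p14, matched for all 7 ligands. Alternatives were RLE and upper-quartile factors, scaling by library size alone, testing every gene with a count, a minimum of 1 CPM throughout a group, DESeq2 1.42.0, limma-voom (limma 3.58.1), the replicate block, the GC correction with and without it, each library left out, and both libraries numbered 1 left out. For shares, the median transcript length replaced the longest. The steps were tested on simulated counts with 200 changed genes. Those counts held no effect of library number and no trend with GC content. They therefore cannot show how the block or the GC correction handles such effects.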

Additional observations from a re-analysis of the deposited data

How the results depend on the processing

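TGFA, HBEGF and AREG were higher in TPA under all 17 alternatives, with log2 fold changes of 1.47 to 1.96, 1.63 to 2.99 and 0.81 to 1.61. TGFA was called in 13 of them, HBEGF in 7 and AREG in 5, and the calls that changed with a library are given with each gene. Calls of ligands were 1 higher with all libraries, 1 with the GC correction alone, 2 with no filter (where 1.06% of all genes were called higher), 3 with DESeq2, with the replicate block, with the GC correction and the block, and without both libraries numbered 1, and 0 to 3 with 1 library left out. No ligand was called lower under any of them. The difference of the AREG share between TPA and DMSO ran from -15.3 points without TPA 2 to -6.66 points with median transcript lengths. The difference of the HBEGF share ran from 2.04 points with median transcript lengths to 10.7 without DMSO 1, and that of TGFA from 0.223 without both libraries numbered 1 to 8.33 without TPA 2.

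Over all genes, 188 were called higher and 86 lower. Counts were 126 and 219 with library size only, 429 and 202 with no filter, 170 and 123 with a minimum of 1 CPM throughout a group, 1702 and 915 with DESeq2, 247 and 130 with limma-voom, 1000 and 1423 with the replicate block, 1971 and 2287 with the GC correction and the block, 694 and 640 with the GC correction alone, and 7216 and 7475 without both libraries numbered 1. With 1 library left out they ran from 0 to 5577 higher and 0 to 6297 lower; both were 0 without DMSO 2 and without DMSO 3, where 2612 and 2745 genes had an unadjusted p under 0.05. The part of calls that were higher was 68.6%, against 36.5% with library size only, 41.3% with the block and 52% with the GC correction. The median over all genes (log2) was -0.11, but -0.36 with library size only and -0.01 with RLE factors. Relative to that median TGFA stood at 1.83, 1.83 and 1.83, HBEGF at 2.04, 2.05 and 2.04, and AREG at 1.18, 1.17 and 1.19.

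Of 37 tested pathway genes 1 was called higher and 1 lower, where 0.861% and 0.394% of all tested genes were. Higher calls follow, with the share of all genes called higher in brackets. They were 0 with library size only (0.577%) and with the 1 CPM minimum (1.05%), and 2 with no filter (1.06%) and with the GC correction (3.3%). DESeq2 gave 4 (7.8%), the block 3 (4.58%), and the GC correction with the block 8 (9.38%). Leaving out both libraries numbered 1 gave 21 (32.2%), and leaving out 1 library gave 0 to 16 (0 to 24.6%). Lower calls were 3 with the block (6.52% of all genes) and 3 with the GC correction and the block (2287 of 21024 genes). They were 9 without both libraries numbered 1 (33.3%), and 0 to 7 with 1 library left out (0 to 27.8%). The causes were not tested. Depth limits BTC, EREG, EPGN and EGF, for which no change could be detected.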

Other observations

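Reads assigned to noncoding genes inside or across TGFA and EGFR were highest in TPA 1. TGFA-IT1, a transcript inside an intron of TGFA on the same strand, had 18, 19 and 19 counts in DMSO 1, 2 and 3 and 54, 13 and 9 in TPA 1, 2 and 3. EGFR-AS1, on the strand opposite EGFR, had 536, 644 and 558 counts in DMSO and 979, 368 and 424 in TPA. In TPA 2 and TPA 3 both were below all DMSO libraries, while TGFA was above them in all 3 TPA libraries. Neither gene passed in edgeR's quasi-likelihood test (log2 0.57 ± 0.70 with adjusted p = 0.657, and 0.15 ± 0.41 with adjusted p = 0.851). Across the chromosome 4 cluster the 2 annotated antisense genes had at most 1 count in a library.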
